A study of Mus musculus with 19 samples.

Results

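SIX2-positive nephron progenitors (SIX2+ cells) were compared with unsorted nephrogenic zone cells (NZC) of mouse kidneys at embryonic stage E16.5. The comparison used 6 of the 19 libraries of the series, chosen by their labels: 3 of SIX2+ cells and 3 of unsorted NZC. Genes entered where the value reached 1 or more in at least 3 of these 6 libraries, which left 11933 of 20162. All 6 came from the CFW strain, with the allele given as NA, so no reporter or mutation was recorded in either group. Their titles name MARIS, a method in which cells are fixed, stained for an intracellular protein with an antibody, sorted and then used for RNA extraction. Whether the unsorted cells were fixed too is not in the labels. The 3 libraries of SIX2− cells are given beside them as a description. The study as a whole set nephron progenitors against stromal progenitors. How many kidneys or animals went into a library is not in the labels, so the p-values reflect how far these libraries scatter, which may be technical scatter.

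The nephrogenic zone is the outer rim of the embryonic kidney, where nephrons form. SIX2 is a homeodomain transcription factor that keeps nephron progenitors undifferentiated around the tips of the branching ureteric epithelium, and Wnt signals from those tips start their conversion into renal vesicles and then into podocytes and tubules. The same rim holds FOXD1-expressing stromal progenitors, vessels, blood cells, ureteric tips and forming nephrons, so unsorted NZC is a mixture in which SIX2+ cells are a component.

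Values are RPKM, reads scaled to the length of the gene model and to the reads of the library. The 3 SIX2+ libraries held an estimated 27000000, 45300000 and 42900000 reads, against 34000000, 3100000 and 37800000 reads in the unsorted libraries. Unsorted library 2 stood apart. SIX2+ libraries had 3457 to 3793 genes at 0, against 2494, 6774 and 2861 in unsorted libraries 1, 2 and 3. The median histone gene was at 1.56 to 1.79 on the log2(RPKM + 1) scale in SIX2+ libraries, against 1.07, 7.82 and 1.83 in the unsorted ones. Each test was therefore made with all 6 libraries and again without unsorted library 2, and a gene is said to be called where limma's Benjamini-Hochberg adjusted p over all 11933 genes was under 0.05.

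More genes were lower than higher in SIX2+ cells, and the largest changes were the lower levels of globins and of fibrillar collagens. With all 6 libraries 584 genes were called higher in SIX2+ cells (4.89% of those tested) and 1236 lower (10.4%), 1820 in all (15.3%). Of the genes tested, 563 were under 1 RPKM in every SIX2+ library and passed the filter only by reaching 1 RPKM in all 3 unsorted libraries, which fixed their direction, and 493 of the lower calls were among them. Another 84 passed only through the SIX2+ libraries and held 25 of the higher calls. Changes of at least 1 on the log2 scale made up 305 of the higher and 1033 of the lower calls. Without unsorted library 2 the calls were 1228 higher (10.3%) and 1695 lower (14.2%), 2923 in all (24.5%), and 579 of the higher and 1232 of the lower calls were shared by both fits. In bulk RNA, fewer cells of a type and less RNA per cell cannot be told apart. The counts turned on which libraries entered: leaving out any of the SIX2+ libraries gave 76 to 87 higher and 537 to 566 lower calls, leaving out unsorted library 1 gave 166 and 815, and leaving out unsorted library 3 gave 957 and 1287. Scaling each library to an equal sum moved the split to 223 higher and 1261 lower calls (15.03% higher, against 32.1% without that scaling), and quantile normalisation moved it to 800 and 1022 (43.9% higher).

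**Figure D1:**
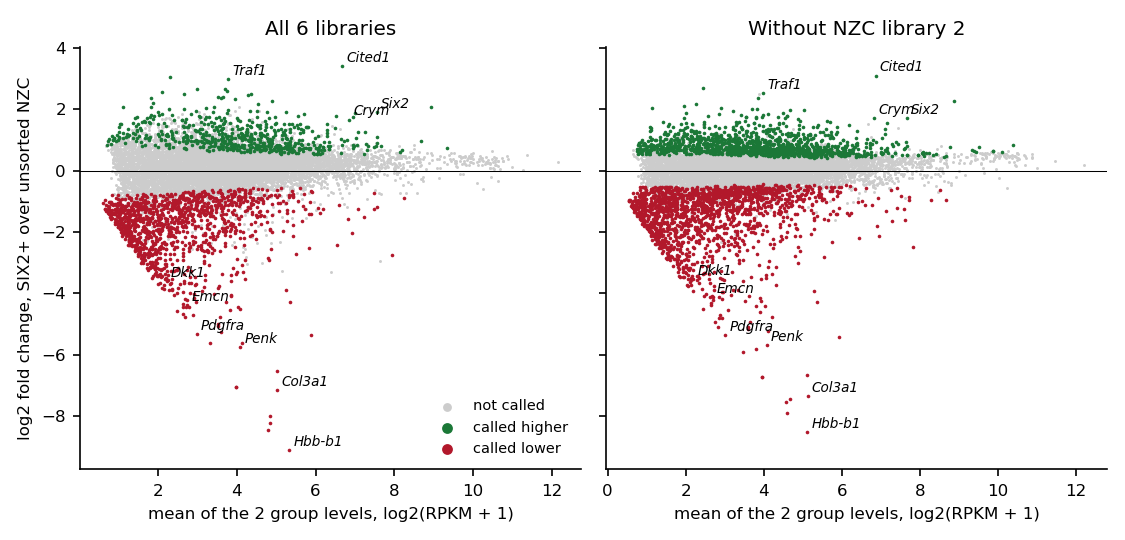
Each point is a gene. The horizontal axis is the mean of the group levels, log2(RPKM + 1), and the vertical axis is the log2 fold change of SIX2+ over unsorted NZC, with all 6 libraries on the left and without NZC library 2 on the right. Green points were called higher in SIX2+ cells (584 left, 1228 right) and red points lower (1236 left, 1695 right); the lower calls reach down to Hbb-b1 at −9.10 while the higher ones end at Cited1 at 3.40.

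The sort was made on the SIX2 protein, and the mRNA of Six2 and of the progenitor genes Cited1 and Traf1 was higher in SIX2+ cells. Six2 (ENSMUSG00000024134.11, chr17:85684277-85688274, minus strand, mm10) stood at 301, 295 and 458 RPKM in SIX2+ libraries, against 65.2, 68.1 and 166 RPKM in unsorted libraries. The groups did not overlap, and library 3 was the highest in each. The change was 1.91 ± 0.37 on the log2 scale (SE; limma adjusted p = 0.0145), and 1.71 ± 0.38 without unsorted library 2 (adjusted p = 0.0171). Six2 lost the call when SIX2+ library 3 was left out (adjusted p = 0.0729), and SIX2− libraries held 4.43, 7.59 and 46.8 RPKM.

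Cited1 (ENSMUSG00000051159.16, chrX:102247381-102252181, minus strand) encodes a transcriptional co-activator found in the least committed nephron progenitors. It stood at 226, 213 and 339 RPKM in SIX2+ libraries, against 8.35, 14.8 and 94.3 RPKM in unsorted libraries. Unsorted library 3 held several times more of it than the other unsorted libraries, but still less than any SIX2+ library. The change was 3.40 ± 0.75 (limma adjusted p = 0.0235), the largest rise among the genes named by rule, and 3.09 ± 0.81 without unsorted library 2 (adjusted p = 0.0312). Traf1 (ENSMUSG00000026875.14, chr2:34941750-34961772, minus strand), an adaptor of tumour necrosis factor receptors, showed the same order: 21.3, 25.2 and 43.7 RPKM in SIX2+ libraries, against 0.949, 0.969 and 12.96 RPKM in unsorted libraries. Its change was 2.98 ± 0.73 (limma adjusted p = 0.0324), and 2.51 ± 0.72 without unsorted library 2 (adjusted p = 0.0419). Cited1 and Traf1 each lost the call without any of the SIX2+ libraries (adjusted p = 0.0746 to 0.102 for Cited1, 0.087 to 0.133 for Traf1) and without unsorted library 1 (0.057 and 0.0928).

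The promoters of these 3 genes, which were higher together, follow as RefSeq places them on GRCm38.p6, the assembly also called mm10. Each runs from 250 bases before the annotated start to 50 after it, 5′ to 3′ on the gene's own minus strand: Six2 at chr17:85688205-85688504, Cited1 at chrX:102252132-102252431 (of 3 windows listed for the gene, the topmost in the table) and Traf1 at chr2:34961723-34962022. Capitals mark matches on either strand to TATAAA (the TATA box), CCAAT (the CCAAT box), GGGCGG (a core of SP1 sites) and TCAGGTTTC (a MEF3 site, bound by SIX-family proteins).
Six2: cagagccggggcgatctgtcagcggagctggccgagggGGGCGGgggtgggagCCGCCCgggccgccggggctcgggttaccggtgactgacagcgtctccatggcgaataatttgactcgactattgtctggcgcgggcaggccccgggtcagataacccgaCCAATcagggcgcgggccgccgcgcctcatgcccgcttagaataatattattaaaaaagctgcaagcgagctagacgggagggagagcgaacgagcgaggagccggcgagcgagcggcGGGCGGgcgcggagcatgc
Cited1: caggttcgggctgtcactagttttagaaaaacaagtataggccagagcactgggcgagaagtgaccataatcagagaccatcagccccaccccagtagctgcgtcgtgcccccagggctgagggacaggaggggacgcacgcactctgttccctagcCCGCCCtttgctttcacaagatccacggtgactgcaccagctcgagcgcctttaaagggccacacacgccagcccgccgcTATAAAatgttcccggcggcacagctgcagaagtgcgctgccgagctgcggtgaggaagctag
Traf1: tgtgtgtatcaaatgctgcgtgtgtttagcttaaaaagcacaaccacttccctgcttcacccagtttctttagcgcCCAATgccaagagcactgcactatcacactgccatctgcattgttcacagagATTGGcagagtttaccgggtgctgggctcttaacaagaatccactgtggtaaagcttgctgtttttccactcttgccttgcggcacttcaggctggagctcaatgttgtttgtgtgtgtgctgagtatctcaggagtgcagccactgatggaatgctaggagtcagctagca
The windows differed in these motifs. The Six2 window held CCAAT 1 time and GGGCGG 3 times, the Cited1 window TATAAA 1 time and GGGCGG 1 time, and the Traf1 window CCAAT 2 times. TCAGGTTTC was in none of them. Of all 32851 promoters in the table, 13.6% held TATAAA, 37.4% CCAAT, 35.7% GGGCGG and 0.429% TCAGGTTTC. No binding was measured here, and a match is a match of letters only.

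Of the 23 genes on a list of nephron progenitor markers, 21 could be tested, 14 were called higher and none lower, with a median change of 1.43 against 0.12 over all genes tested. In 17 of the 21 every SIX2+ library lay above every unsorted one, as in 24.9% of all genes tested, and in none did every one lie below (19.8%); without unsorted library 2 these were 18 and none, beside 31.7% and 27.2% of all genes. The calls without that library were 13, with a median of 1.17 against 0.05; Pax2, a paired-domain factor needed for kidney formation, lost its call (115, 147 and 214 RPKM in SIX2+ libraries, against 29.2, 29.8 and 97.8 in unsorted ones; adjusted p = 0.0405 with all 6 and 0.0532 in the repeat). Leaving out a SIX2+ library left 5, 5 and 4 calls, leaving out unsorted library 1 left 7, and leaving out unsorted library 3 gave 17. Dapl1 was under 1 RPKM in all 6 libraries and was not tested. Counts in this and later lists stand beside 4.89% called higher and 10.4% lower over all genes tested. Without unsorted library 2 these shares were 10.3% and 14.2%.

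The transcription factors on the list were Six2, Eya1, Meox1, Osr1, Sall1, Wt1, Pax2, Uncx and Six4, with Cited1 as a co-activator. Meox1, a homeobox gene of mesenchymal progenitors, stood at 41.7, 40.6 and 51.8 RPKM in SIX2+ libraries, against 5.15, 6.42 and 21.04 RPKM in unsorted libraries, a change of 2.18 ± 0.44 (limma adjusted p = 0.0171; without unsorted library 2, 1.96 ± 0.46 and 0.0207). It lost the call without any of the SIX2+ libraries (adjusted p = 0.0629 to 0.0828). Eya1, whose protein is the partner of SIX2, was at 68.2, 73.6 and 62.0 RPKM against 20.6, 16.2 and 43.6 RPKM in unsorted libraries (1.43, adjusted p = 0.0263). Osr1 was called at 1.70, Uncx at 1.87, Wt1 at 1.38 and Sall1 at 0.78. Osr1 kept its call without each library in turn, whereas Eya1, Uncx and Sall1 lost theirs without any SIX2+ library or unsorted library 1 (adjusted p = 0.0787 to 0.141) and Wt1 without any SIX2+ library (0.0713 to 0.0955). Six4 was not called (−0.41, adjusted p = 0.395). Sall1 and Wt1 had means of 102 ± 3.15 and 141 ± 17.9 RPKM in SIX2+ cells and 60.1 ± 16.4 and 56.6 ± 21.9 RPKM in NZC (SD, n = 3 each). Wt1 is also made in podocytes.

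The remaining members were secreted factors, surface proteins and enzymes. Crym, a thyroid hormone binding protein, stood at 257, 188 and 170 RPKM in SIX2+ libraries, against 58.4, 67.9 and 63.6 RPKM in unsorted libraries. It was the member with the most even unsorted values, and its change of 1.66 ± 0.19 had an adjusted p of 0.00177 in limma. Rspo1, a secreted amplifier of Wnt signals, was at 91.1, 68.3 and 93.7 RPKM against 21.1, 18.6 and 33.5 RPKM in unsorted libraries (1.78, adjusted p = 0.00361). Nell1 (1.17) and the growth factor Fgf20 (1.69), which helps to maintain nephron progenitors, were also called. Crym, Rspo1 and Nell1 kept the call without each library in turn, and Fgf20 lost it without any SIX2+ library or unsorted library 1 (adjusted p = 0.0579 to 0.132). Bmp7 (0.80, adjusted p = 0.0534), Tmem100 (1.17, 0.0681), Spock2 (1.34, 0.0764), Itga8 (0.72, 0.128), Gdnf (0.27, 0.499) and Fgf9 (0.11, 0.924) were not. Gdnf, the ligand that attracts the ureteric bud, had 21.5, 20.9 and 25.9 RPKM in SIX2+ libraries, against 16.1, 14.2 and 28.4 RPKM in unsorted libraries, so the groups overlapped. In this section the genes beyond Six2, Cited1, Traf1, Meox1 and Pax2 were picked for description after their values were seen.

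**Figure D2:**
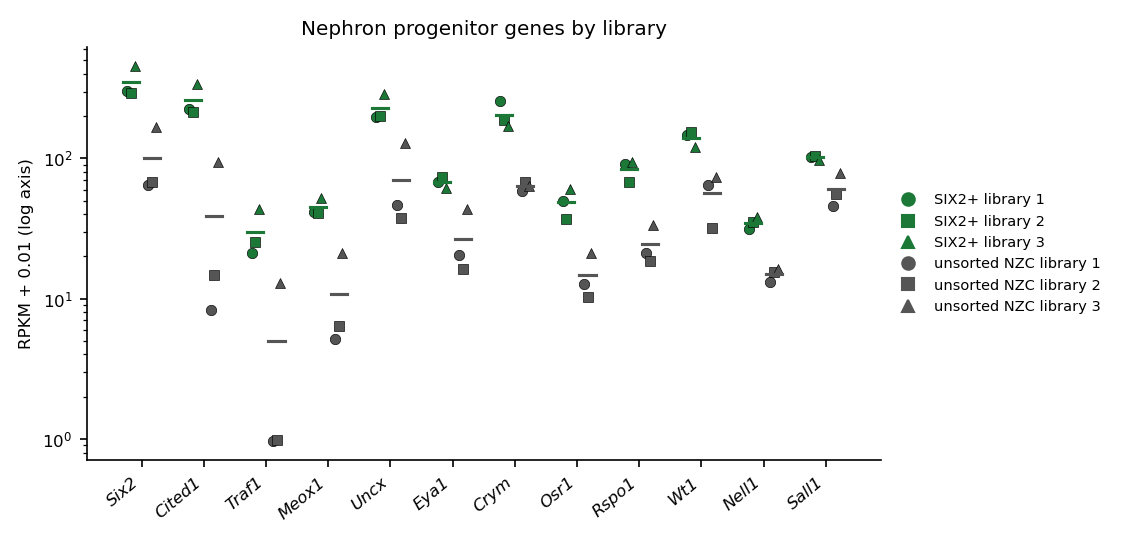
Levels of 12 nephron progenitor genes in each library, as RPKM + 0.01 on a log axis; green points are SIX2+ libraries, grey points unsorted NZC libraries, marker shape gives the library number and bars the group means. In each of the 12 genes the green points lie above the grey ones, and for Cited1 and Traf1 the grey triangle of NZC library 3 (94.3 and 12.96 RPKM) lies far above the other grey points.

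The unsorted libraries were not alike in how much of each progenitor gene they held. As a share of the SIX2+ mean, the 14 called members had a median of 25.5% in unsorted library 1 (3.15% to 46.1%), 20.2% in library 2 (3.22% to 55.1%) and 46.9% in library 3 (31.0% to 76.7%). Six2 was at 18.6%, 19.4% and 47.4% of the SIX2+ mean in the 3 unsorted libraries. Cited1 spanned 3.22%, 5.72% and 36.4%, whereas Crym stayed at 28.5%, 33.2% and 31.0%.

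Cited1 and Six2 did not scale together across the unsorted libraries. The ratio of Cited1 to Six2 was 0.752, 0.723 and 0.741 in SIX2+ libraries, against 0.128, 0.218 and 0.567 in unsorted ones. All 3 unsorted ratios were below all 3 SIX2+ ratios. The ratio of Crym to Six2 behaved otherwise, at 0.853, 0.639 and 0.371 in SIX2+ libraries and 0.896, 0.997 and 0.382 in unsorted ones, and in each group it was lowest in library 3. In SIX2− libraries the ratio of Cited1 to Six2 was 0.916, 0.581 and 0.491. These ratios were looked at after the levels had been seen and are given with no test.

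**Figure D3:**
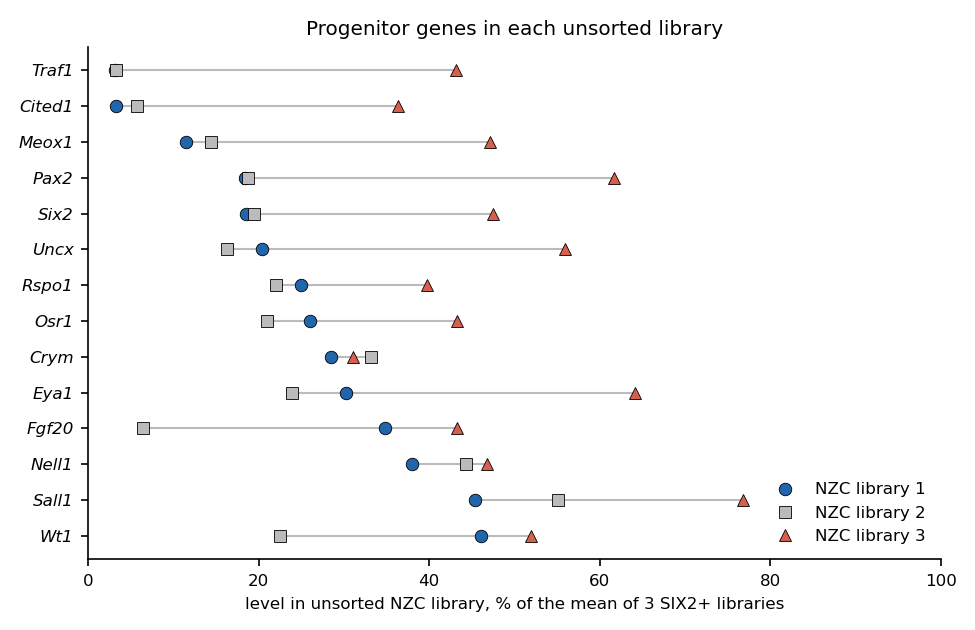
Level of the 14 called nephron progenitor genes in each unsorted NZC library, as a percent of the mean of the 3 SIX2+ libraries; circles are NZC library 1, squares library 2 and triangles library 3. Traf1 and Cited1 at the top spread from 3.15% and 3.22% in library 1 to 43.1% and 36.4% in library 3, while Crym lies between 28.5% and 33.2%.

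Outside the progenitor list the largest rises were in genes of several kinds. Col11a2, a fibrillar collagen chain better known from cartilage, stood at 18.1, 24.8 and 40.7 RPKM in SIX2+ libraries, against 1.35, 1.85 and 11.2 RPKM in unsorted libraries (2.66 ± 0.61, limma adjusted p = 0.0259). Hs3st6, a heparan sulfate sulfotransferase, was at 40.6, 34.3 and 51.3 RPKM against 7.57, 1.85 and 17.3 RPKM in unsorted libraries (2.48 ± 0.59, adjusted p = 0.0292). Phf19, a Polycomb-associated chromatin protein, was at 34.8, 32.8 and 47.1 RPKM against 4.35, 2.24 and 19.6 RPKM in unsorted libraries (2.45 ± 0.60, adjusted p = 0.0328). In these genes, as in Cited1, unsorted library 3 was nearest to the SIX2+ libraries. Meox2, a homeobox gene related to Meox1, rose by 2.39, the extracellular protein gene Kazald1 by 2.66, Snap91 (a clathrin adaptor of nerve endings) by 2.60 and Fam189a2 by 2.41. Each of these 7 lost the call without any of the SIX2+ libraries and without unsorted library 1, with adjusted p between 0.0632 for Col11a2 and 0.148 for Snap91. Pnmt and Slc45a3 were called with all 6 libraries (1.92 and 1.78) but not without unsorted library 2 (adjusted p = 0.0524 and 0.055).

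Rsc1a1 was the gene of this kind whose call held without every library in turn. It stood at 9.61, 8.62 and 9.07 RPKM in SIX2+ libraries, against 1.37 and 1.13 RPKM in unsorted libraries 1 and 3 and close to 0 in library 2 (2.56 ± 0.34, limma adjusted p = 0.0031). It also stood at 7.82, 7.25 and 7.69 RPKM in SIX2− libraries, so both sorted fractions were above the unsorted cells. Its exons overlap those of Ddi2 on the same strand, so its reads could be split between these genes. Ddi2, looked up for that reason, was at 3.25, 4.16 and 6.16 RPKM in SIX2+ libraries and 3.01, 3.84 and 6.44 RPKM in SIX2− libraries, against 12.5, 21.1 and 17.7 RPKM in unsorted libraries (−1.72, limma adjusted p = 0.00644). Of the 69 genes named by rule, 17 share exons with another annotated gene, 11 of them on the opposite strand, and where counting ignored strand such reads cannot be told apart.

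Posterior Hox genes, which give the trunk its regional identity and of which the Hox11 group is needed for kidney formation, were higher in SIX2+ cells. Of 11 tested, 7 were called higher and none lower (median 0.96 against 0.12 over all genes tested); without unsorted library 2 these were 8 and 0.77. Hoxd10 was at 94.5, 99.2 and 76.5 RPKM in SIX2+ libraries, against 37.6, 25.9 and 35.9 RPKM in unsorted libraries (1.42 ± 0.19, limma adjusted p = 0.00352). Hoxa9 was at 63.3, 57.8 and 42.4 RPKM against 20.6, 16.7 and 25.2 RPKM in unsorted libraries (1.35 ± 0.22, adjusted p = 0.00696). The groups did not overlap in either gene, and both calls held without each library in turn. SIX2− libraries held 51.8, 41.5 and 44.9 RPKM of Hoxd10, so both sorted fractions stood above the unsorted cells, as for Rsc1a1. They held 27.7, 29.3 and 25.0 RPKM of Hoxa9, with library 3 within the unsorted range, and 12.7, 16.2 and 18.1 RPKM of Hoxb9. Hoxb9 (1.501, adjusted p = 0.0213) lost its call without any SIX2+ library or without unsorted library 1 (adjusted p = 0.0682 to 0.0952). With those 4 libraries left out in turn, 2 members were called each time.

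Targets of the signals that act on progenitors moved unevenly. Of 10 feedback targets of FGF signalling, which keeps progenitors alive, Etv4 alone was called (81.7, 75.6 and 107 RPKM in SIX2+ libraries, against 18.2, 12.3 and 56.9 RPKM in unsorted libraries; 1.85, adjusted p = 0.042), and it lost the call without any SIX2+ library or unsorted library 1 (adjusted p = 0.109 to 0.152). The list's median was −0.06, beside 0.12 over all genes. Without unsorted library 2, 1 member was called higher and 2 lower, beside 10.3% and 14.2% of all genes. The median was then −0.20, beside 0.05. Of 9 Wnt targets tested, 3 were called lower and none higher: Apcdd1 (−2.11), Lef1 (−2.06) and Ccnd1 (−1.27). Lef1, a factor that carries Wnt signals to DNA, stood at 1.57, 1.83 and 0.720 RPKM in SIX2+ libraries, against 10.5, 8.38 and 7.28 RPKM in unsorted libraries (adjusted p = 0.00266). Axin2, the feedback target most often used as a readout, was not called (0.15, adjusted p = 0.596). Apcdd1 lost its call without any SIX2+ library (adjusted p = 0.0758 to 0.0832).

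Of 11 genes of the retinoid pathway, 6 were called lower and none higher (2 of the 6 had passed the filter only through the unsorted libraries; 7 calls without unsorted library 2, and 2 or 3 without a SIX2+ library). Rarg, a retinoic acid receptor, was at 1.81, 2.23 and 2.18 RPKM in SIX2+ libraries, against 16.3, 7.48 and 10.5 RPKM in unsorted libraries (−1.96, limma adjusted p = 0.00441). Cyp26b1, which degrades retinoic acid, changed by −2.05 and Aldh1a3, which makes it, by −1.96. Cyp26b1 lost its call without any SIX2+ library (adjusted p = 0.0966 to 0.103), and Aldh1a3 without SIX2+ library 2 or 3 (0.0523 and 0.0577). The retinoic acid producing enzyme of the cortical stroma, Aldh1a2, missed the call with all 6 libraries (135, 113 and 86.9 RPKM in SIX2+ libraries, against 254, 146 and 257 RPKM in unsorted libraries; adjusted p = 0.0522).

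Genes of early differentiating nephrons were mostly lower in SIX2+ cells. Of 19 tested, 12 were called lower and 1 higher, with the same counts without unsorted library 2. Of the 12, 4 had passed the filter only through the unsorted libraries and could differ in no other direction, which leaves 8 lower calls among the 15 others. Dkk1, a secreted Wnt antagonist, was at 0.294, 0.215 and 0.454 RPKM in SIX2+ libraries, against 11.0, 16.1 and 18.6 RPKM in unsorted libraries (−3.59 ± 0.25, limma adjusted p = 0.000301). Pou3f3 changed by −3.03. SIX2− libraries held 33.6 to 40.6 RPKM of Dkk1.

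The members that follow were picked for description after the values were seen. Lhx1, a marker of the renal vesicle, was at 2.26, 4.39 and 2.29 RPKM in SIX2+ libraries, against 13.2, 15.1 and 30.2 RPKM in unsorted libraries (−2.32, limma adjusted p = 0.00517), and the Notch ligand Jag1 changed by −2.13. Wnt4, whose onset marks the start of epithelial conversion, overlapped between groups at 40.4, 38.4 and 16.8 RPKM in SIX2+ libraries, against 37.4, 42.9 and 28.0 RPKM in unsorted libraries (−0.25, adjusted p = 0.622). Pax8, induced at the same step, was at 34.0, 41.1 and 38.9 RPKM against 37.9, 25.8 and 47.0 RPKM in unsorted libraries (0.08, adjusted p = 0.831). Fgf8 was not called either (1.39, adjusted p = 0.101), nor were Notch2, Heyl and Cdh4 (limma adjusted p = 0.117, 0.504 and 0.62). The member that rose was the chemokine receptor Cxcr4, at 28.3, 28.8 and 30.3 RPKM in SIX2+ libraries, against 14.4, 7.45 and 16.9 RPKM in unsorted libraries (1.18, adjusted p = 0.0283). Its call was lost without any SIX2+ library or unsorted library 1 (adjusted p = 0.0552 to 0.108).

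Markers of mature nephron segments were low in SIX2+ cells. For podocytes, 7 of 9 tested were called lower (2 to 3 calls without a SIX2+ library, 5 without unsorted library 1). Of the 9, 4 had passed the filter only through the unsorted libraries, and 3 of the 5 others were called lower. Podxl, the main sialoprotein of podocyte foot processes, which endothelium also makes, was at 0.672, 0.976 and 1.03 RPKM in SIX2+ libraries, against 47.5, 32.3 and 8.47 RPKM in unsorted libraries (−3.72 ± 0.54, limma adjusted p = 0.00459). Foxc2, which nephron progenitors also express, was not called, at 46.6, 43.8 and 45.2 RPKM in SIX2+ libraries and 41.7, 36.6 and 37.6 RPKM in unsorted ones (0.22, adjusted p = 0.298).

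For tubules, all 12 markers were under 1 RPKM in every SIX2+ library. The 7 that could be tested passed the filter only through the unsorted libraries, so their direction was fixed, and 6 were called. The summed level of the 12 markers was 2.38 to 3.14 RPKM in SIX2+ libraries, against 39.997 to 220 RPKM in unsorted ones. Cdh16, the kidney-specific cadherin, was at 0.463, 0.474 and 0.522 RPKM in SIX2+ libraries, against 16.9, 45.0 and 13.5 RPKM in unsorted libraries (−3.94 ± 0.41, limma adjusted p = 0.00129). Pdzk1, a scaffold of the brush border, changed by −3.13. Fxyd2, a regulator of the sodium pump, changed by −3.70 with all 6 libraries and −2.79 without unsorted library 2, which held 58.9 RPKM of it against 11.8 and 5.26 RPKM in unsorted libraries 1 and 3. Fxyd2 lost the call without any SIX2+ library (adjusted p = 0.0517 to 0.0706).

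For the ureteric epithelium, 7 of 9 tested were called lower and 1 higher; 4 of the 7 had passed the filter only through the unsorted libraries. Calb1, a calcium-binding protein of the ureteric tree, was at 0.0637, 0.198 and 0.410 RPKM in SIX2+ libraries, against 11.9, 25.3 and 16.4 RPKM in unsorted libraries (−3.89 ± 0.30, limma adjusted p = 0.000394). Krt8 and Emx2 changed by −2.93 and −2.72. The receptor of GDNF at the ureteric tip, Ret, was at 0.0697, 0.0357 and 0.126 RPKM against 3.18, 6.23 and 4.40 RPKM in unsorted libraries (−2.34). The member called higher was Hoxb7 (34.8, 28.8 and 36.3 RPKM in SIX2+ libraries, against 15.1, 17.8 and 23.6 RPKM in unsorted libraries; 0.81, adjusted p = 0.0358). Hoxb7 lost the call without any SIX2+ library or unsorted library 1 (adjusted p = 0.0861 to 0.14).

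Stromal genes were lower in SIX2+ cells, and the matrix genes most evenly so. Of 15 cortical stromal progenitor genes 13 were called lower and none higher (9 calls without a SIX2+ library and 10 without unsorted library 1). Of the 13, 3 had passed the filter only through the unsorted libraries. Penk, a neuropeptide precursor made by kidney stroma, was at 1.22, 0.975 and 1.47 RPKM in SIX2+ libraries, against 191, 128 and 65.3 RPKM in unsorted libraries (−5.74 ± 0.36, limma adjusted p = 0.000215). Ecm1 and Smoc2, which encode matrix proteins, changed by −4.54 and −4.46. Foxd1, the defining factor of these cells and chosen for that, had a smaller change, at 30.6, 16.0 and 22.2 RPKM in SIX2+ libraries, 63.9, 51.4 and 103 RPKM in SIX2− libraries and 52.5, 34.3 and 58.4 RPKM in unsorted libraries (−1.06, adjusted p = 0.0432). The groups did not overlap, but the call was lost without any library other than unsorted library 2 (adjusted p = 0.0543 to 0.148). Meis2 (0.48, adjusted p = 0.162) and Tcf21 (−1.09, 0.0683) were not called.

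Of 16 interstitial matrix genes 15 were called lower, with all 6 libraries, without unsorted library 2 and without each other library in turn. Of the 15, 5 had passed the filter only through the unsorted libraries, and 10 of the 11 others were called lower. Col3a1 was at 1.98, 1.18 and 1.79 RPKM in SIX2+ libraries, against 630, 286 and 289 RPKM in unsorted libraries (−7.15 ± 0.32, limma adjusted p = 8.93e-05). Col1a2 was at 2.83, 1.53 and 2.52 RPKM against 500, 239 and 217 RPKM in unsorted libraries (−6.52 ± 0.33, adjusted p = 9.08e-05). Col1a1, the other chain of type I collagen, changed by −5.36. SIX2− libraries held 315 to 511 RPKM of Col3a1, within the range of the unsorted libraries. Tnc, the exception on the list, was at 28.1, 33.8 and 37.8 RPKM in SIX2+ libraries, against 24.2, 15.6 and 27.2 RPKM in unsorted libraries (0.58, adjusted p = 0.129).

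Of 13 mural genes, those of pericytes and smooth muscle, 9 were called lower and 1 higher (5 to 7 lower calls without a SIX2+ library and 7 without unsorted library 1). Of the 9, 5 had passed the filter only through the unsorted libraries. Pdgfrb, the receptor that marks pericytes and stroma, was at 1.13, 1.09 and 1.37 RPKM in SIX2+ libraries, against 39.9, 26.6 and 31.3 RPKM in unsorted libraries (−3.92 ± 0.21, limma adjusted p = 0.000101), and Rgs5 changed by −3.41. Ren1, the renin gene, was listed at 0 in all 3 SIX2+ libraries and stood at 20.0, 24.9 and 2.69 RPKM in unsorted libraries (adjusted p = 0.0111), a call lost without SIX2+ library 2 or 3 (0.0506 and 0.0577). Des, the intermediate filament gene of muscle, was the member called higher, at 47.8, 31.9 and 42.7 RPKM in SIX2+ libraries, 19.2, 13.8 and 10.8 RPKM in SIX2− libraries and 21.1, 18.1 and 20.4 RPKM in unsorted libraries (0.99, adjusted p = 0.014). Its call was lost without SIX2+ library 1 or 3 (adjusted p = 0.0759 and 0.0661). Actg2, a smooth muscle actin, was called with all 6 libraries (−2.15) but not without unsorted library 2 (adjusted p = 0.051).

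Genes of vessels, macrophages and red cells were low in SIX2+ cells. Of 13 endothelial genes tested 10 had passed the filter only through the unsorted libraries, which fixed their direction, and all 10 were called lower (12 in all, 4 to 8 without a SIX2+ library). The summed level of 15 markers was 11.2 to 13.6 RPKM in SIX2+ libraries, against 68.2 to 447 RPKM in unsorted ones. Emcn, a sialomucin of capillaries, was at 0.325, 0.344 and 0.174 RPKM in SIX2+ libraries, against 56.1, 37.7 and 7.72 RPKM in unsorted libraries (−4.39 ± 0.62, limma adjusted p = 0.00404). Cdh5 and Pecam1, junction proteins of endothelium, changed by −4.05 and −3.67, and Pecam1 lost the call without SIX2+ library 3 (adjusted p = 0.0516). In each of these genes unsorted library 3 was the lowest of the unsorted libraries, though above every SIX2+ library. Fabp4, a fatty acid binding protein of capillaries and fat, was at 0.627, 1.91 and 0.612 RPKM against 264, 162 and 19.8 RPKM in unsorted libraries (−5.62 ± 0.84, adjusted p = 0.00516).

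Of 10 leukocyte genes 7 were called lower, 10 without unsorted library 2 and 4 to 5 without a SIX2+ library. Of the 10, 6 had passed the filter only through the unsorted libraries, and 2 of the 4 others were called. C1qb, a complement gene of macrophages, was at 1.69, 0.0823 and 0.239 RPKM in SIX2+ libraries, against 7.19, 13.6 and 6.996 RPKM in unsorted libraries (−2.69 ± 0.40, limma adjusted p = 0.00516). SIX2+ library 1 was the highest of its group in C1qb and in C1qa (1.49 RPKM against 0.182 and 0.107 in SIX2+ libraries 2 and 3), and the summed level of the 13 leukocyte markers was 12.4, 1.61 and 1.45 RPKM in SIX2+ libraries, against 49.6 to 57.2 RPKM in unsorted ones. C1qa changed by −2.15. Cx3cr1, a chemokine receptor of macrophages, changed by −2.27 with all 6 libraries and −1.55 without unsorted library 2, and lost the call without any SIX2+ library (adjusted p = 0.108 to 0.121).

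The largest differences of all were in red cell genes. Of 9 tested, 8 were under 1 RPKM in every SIX2+ library, had passed the filter only through the unsorted libraries and were called lower. Hbb-b1, an adult beta globin, was at 0.564, 0.530 and 0.166 RPKM in SIX2+ libraries, against 1510, 1742 and 173 RPKM in unsorted libraries (−9.10 ± 0.79, limma adjusted p = 0.000601). Unsorted library 3 held far less globin than the other unsorted libraries, but more than any SIX2+ library. Hbb-bs, Hba-a2 and Hba-a1 changed by −8.45, −8.23 and −8.01, each called without every library in turn. Hbb-b2 and Hbb-bt (−7.05) had the same value in all 15 libraries of the table, so they count as 1 measurement, and reads of such near-identical globin genes cannot be assigned surely.

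The 9 globin genes together took at most 0.000592% of the summed RPKM in SIX2+ libraries, against 1.31%, 1.17% and 0.127% in unsorted libraries. SIX2− libraries had 0.00157% to 0.00592%. Alas2, the red cell enzyme of haem synthesis, followed the same order at up to 0.0350 RPKM in SIX2+ libraries, 0.0583 to 0.172 RPKM in SIX2− libraries and 5.75 to 25.4 RPKM in unsorted libraries. Both sorted fractions were thus low in globin. Epor, the erythropoietin receptor, was not called (−0.13, adjusted p = 0.822).

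**Figure D4:**
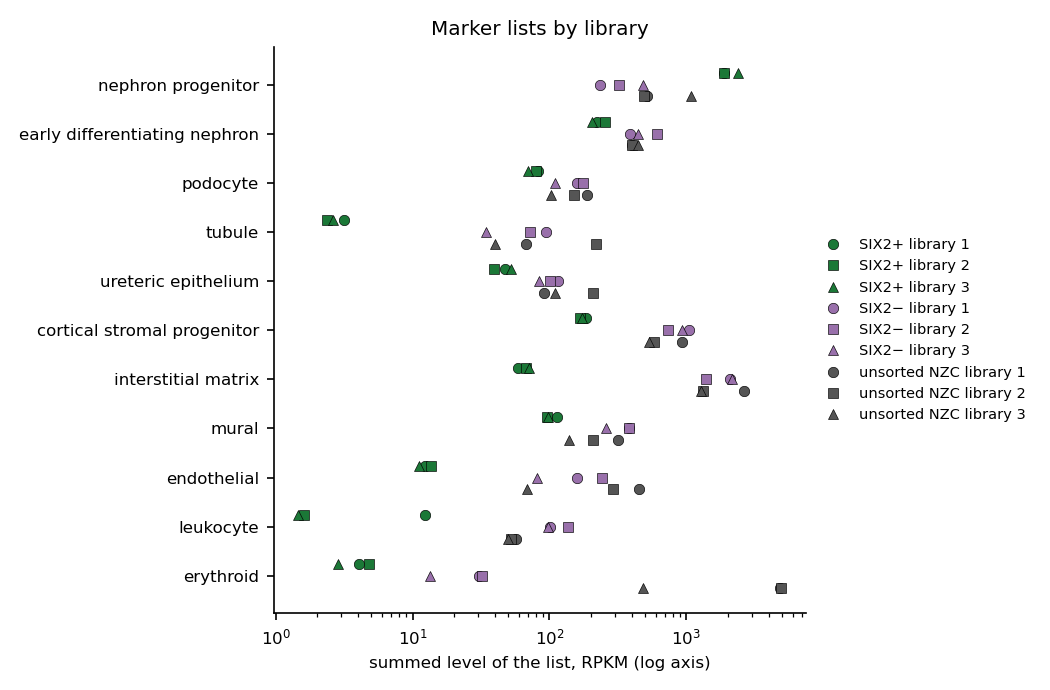
Summed level of the members of 11 marker lists in each library, in RPKM on a log axis, with SIX2+ libraries in green above SIX2− libraries in purple and unsorted NZC libraries in grey; marker shape gives the library number. SIX2+ libraries lie highest for the nephron progenitor list and lowest for the others, and the erythroid list is at 2.87 to 4.797 RPKM in SIX2+ libraries, 13.5 to 32.2 RPKM in SIX2− libraries and 483 to 4946 RPKM in unsorted NZC.

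Nerve and glial genes were mostly too low to test: 3 of 10 passed. Map2 was called lower, at 0.496, 0.477 and 0.260 RPKM in SIX2+ libraries, against 2.66, 3.73 and 1.83 RPKM in unsorted libraries (limma adjusted p = 0.0127, lost without any SIX2+ library at 0.0632 to 0.0714). It had passed the filter only through the unsorted libraries, which fixed its direction. In the 2 other members tested every SIX2+ library lay above every unsorted one, as in 24.9% of all genes. Neither was called with all 6 libraries, but both were called higher without unsorted library 2, beside 10.3% of all genes. The median of the list was 0.59, and 0.79 in the repeat, beside 0.12 and 0.05 over all genes. Of the untested members, Stmn2 and Th, picked after their values were seen, were highest in unsorted library 1. Stmn2, a neuronal microtubule regulator, was at most at 0.0121 RPKM in SIX2+ libraries, against 20.3, 0 and 2.81 RPKM in unsorted libraries 1, 2 and 3. Th, the enzyme that starts catecholamine synthesis, was at most at 0.0263 RPKM in SIX2+ libraries, against 9.58, 0 and 0.375 RPKM in unsorted ones.

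In the housekeeping and response lists few genes were called, beside 4.89% called higher and 10.4% lower over all genes tested. Of 20 cell cycle genes Mki67, the proliferation marker, alone was called (38.8, 49.7 and 48.1 RPKM in SIX2+ libraries, against 60.9, 86.0 and 71.4 RPKM in unsorted libraries; −0.66, limma adjusted p = 0.0494), and it lost the call without any library other than unsorted library 2 (adjusted p = 0.0583 to 0.191). The median of the list was 0.06 and fell below 0 under each of the 3 other scalings. Slc2a3, a glucose transporter, was the called member of 18 glycolysis genes (−1.56, adjusted p = 0.00705). The median of that list was 0.42, and its groups did not overlap in 8 members higher in SIX2+ libraries and 1 lower, beside 24.9% and 19.8% of all genes. Igf2, a fetal growth factor, was the called member of 8 genes of the LIN28 and IGF2BP growth programme. Igf2 stood at 241, 224 and 192 RPKM in SIX2+ libraries, against 576, 360 and 320 RPKM in unsorted libraries (−0.89, adjusted p = 0.0461; lost without any SIX2+ library or unsorted library 1 at 0.0851 to 0.165). No member of the mitochondrially encoded list was in the table.

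Among 23 immediate early and heat shock genes, which respond to tissue handling, Klf6 was called lower (5.997, 6.09 and 10.1 RPKM in SIX2+ libraries, against 48.2, 27.0 and 37.1 RPKM in unsorted libraries; −2.19, limma adjusted p = 0.00241). Without unsorted library 2 the calls were 2 higher and 4 lower, beside 10.3% and 14.2% of all genes tested. The heat shock gene Hspa1a, picked after its values were seen, was not called (0.15, adjusted p = 0.941) but was highest in library 3 of every group: 7.65, 37.2 and 202 RPKM in SIX2+ libraries, 12.2, 16.3 and 102 RPKM in SIX2− libraries and 11.2, 27.4 and 143 RPKM in unsorted libraries. Fos was likewise highest in library 3 of each group, at 514 RPKM in SIX2+, 703 RPKM in SIX2− and 638 RPKM in unsorted cells.

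The values of replication-dependent histone genes hung on unsorted library 2. Of 41 histone genes none was called by limma (1 at an unadjusted p under 0.05), with a median of −1.78 that became 0.37 with 3 higher calls without that library. Hist1h4m was at 1.23 to 2.48 RPKM in SIX2+ libraries, against 1.69, 664 and 4.48 RPKM in unsorted libraries. Of 79 ribosomal protein genes none was called by limma with all 6 libraries (13 at an unadjusted p under 0.05, all of them higher). Without unsorted library 2, 9 were called higher, a share near the 10.3% of all genes. Every SIX2+ library lay above every unsorted one in 26 of the 79, beside 24.9% of all genes. Without unsorted library 2 this held in 74, beside 31.7%. The list's median was 0.30 against 0.12 over all genes, and 0.49 against 0.05 in the repeat. Across the 3 other scalings it ran from 0.10 to 0.22 with all 6 libraries. Among the 9 was Rps26 (2031, 1775 and 1494 RPKM in SIX2+ libraries, against 1047, 1470 and 942 RPKM in unsorted libraries). Its limma adjusted p was 0.115 with all 6 and 0.0191 in the repeat. Mt2, a metallothionein gene, and Cd38 were called lower with all 6 libraries (−2.39 and −2.18) but not without unsorted library 2 (adjusted p = 0.052 and 0.0606).

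**Figure D5:**
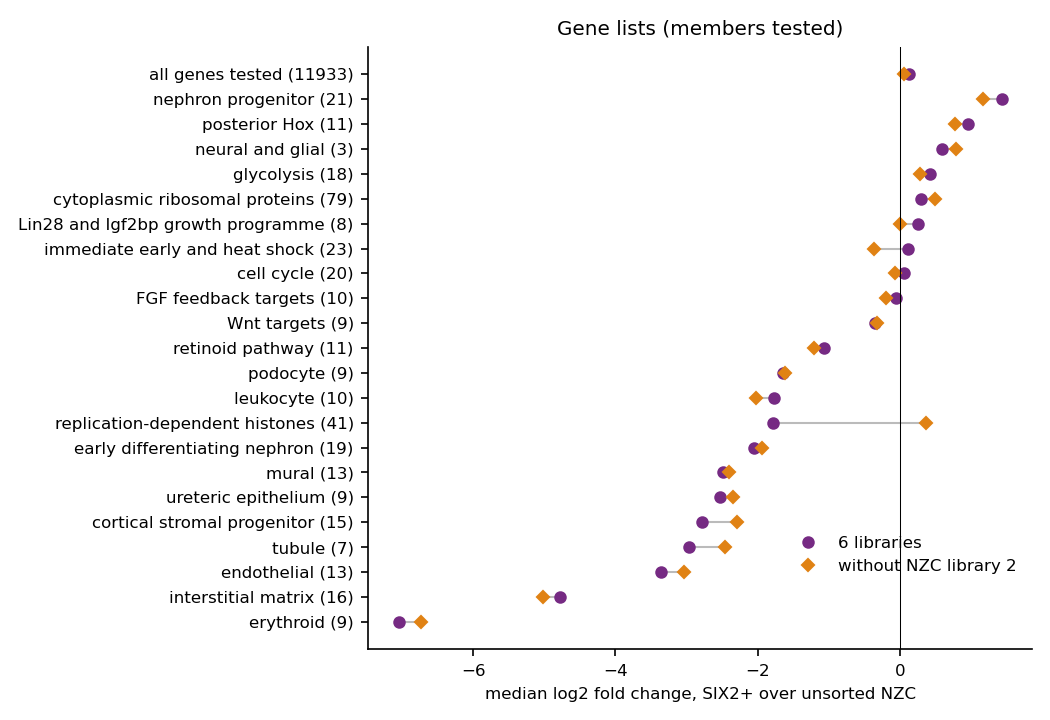
Median log2 fold change of SIX2+ over unsorted NZC for the tested members of each gene list (number tested in brackets); purple circles are all 6 libraries and orange diamonds leave out NZC library 2, and the top line gives all 11933 genes tested. Medians cover only the members that passed the filter, and in lists such as the tubule, endothelial and erythroid ones most of these passed only through unsorted NZC and could lie only below 0. The nephron progenitor list lies highest at 1.43 and 1.17, and the erythroid list lowest at −7.05 and −6.73. The histone list crosses 0 by the widest margin, at −1.78 with all 6 libraries and 0.37 without NZC library 2. The immediate early and heat shock list (0.11 and −0.37) and the cell cycle list (0.06 and −0.06) cross 0 too.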

How the data were processed

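RNA was sequenced as stranded mRNA libraries (Kapa kit) and had been isolated with the RecoverAll and RNeasy Micro kits, per the labels' protocols; which library had which kit is not given in the sources used here. TopHat2, Partek and the build mm10 are named without versions, per the submitters' processing notes. The annotation, and any use of strand in counting, were not given in the sources used here. Per gene and library, the authors deposited 1 value in a table titled TPM, and these deposited values behave as RPKM. Columns of TPM have equal sums, but the 15 column sums varied by 7.99% (coefficient of variation), and by 2.70% after multiplication by exonic length. The tests fixed for unlabelled values serve RPKM unchanged.

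Depth was estimated from low RPKM values, which are multiples of what 1 read is worth, and is approximate; RPKM holds no counts, so no count model was used. Lines of the same name (2) were summed, and 27 names that had turned into dates are not reported by name. GENCODE M21 held 96.0% of the names and gave lengths and positions on GRCm38, the assembly also called mm10. Values were compared as log2(RPKM + 1) with limma 3.58.1 (eBayes with an intensity trend, two-sided, 4 residual degrees of freedom, 3 without unsorted library 2) in R 4.3.3, after tests on simulated data. Fold changes on this scale understate changes of low genes. Calls were made at p under 0.05 after Benjamini-Hochberg adjustment over the 11933 genes tested. Sums, lists and figures were made with pandas 2.3.3 (python 3.11.15) and matplotlib 3.10.9. The E14.5 table was not used here.

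The comparison, the members, the 23 lists of genes and the rule by which genes are named were chosen with earlier results of these data known. Named by rule were Six2, Cited1 and Traf1; in each direction the 10 largest changes among genes called in both fits, with a mean of at least 5 RPKM in the higher group and no overlap; up to 3 called members of each list, or the 1 with the largest change where none was called; and up to 3 genes per direction called with all 6 libraries but not in the repeat. Predicted genes were left out. Any other gene was chosen after its values were seen. A few genes are not reported here. Alternatives were the libraries in the fit, the replicate number as a block, scaling, pseudocount, filter, variance trend, library weights and leaving out each library.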

Additional observations from a re-analysis of the deposited data

How the results depend on the processing

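The count of calls moved by more than 1.5 times with some choices, and its direction (more lower than higher) turned in the fit of all 15 libraries of the table, which gave 2271 higher and 2016 lower calls (4287 in all, against 584, 1236 and 1820). Library weights gave 1801 higher and 2001 lower calls (3802), and a filter of at least 5 RPKM gave 449 higher and 646 lower (1095), with fewer genes tested. Scaling to equal sums gave 223 higher calls, and no filter gave 331. Leaving out 1 library gave 613 to 2923 calls, 76 to 1228 higher and 537 to 1695 lower, the most without unsorted library 2. Without that library, the 14 other libraries of the table in 1 fit gave 1923 higher calls (4043 in all), scaling to equal sums 635, and the filter of at least 5 RPKM 1880 calls with 951 higher and 929 lower, which turned the direction; leaving out a further library gave 1467 to 3124 calls (1613 without SIX2+ library 1 and 1559 without SIX2+ library 2, with 475 and 431 higher), 316 to 1319 higher and 1128 to 1805 lower. These repeats without unsorted library 2, apart from the 14-library fit, the block and median-of-ratios scaling, were added after seeing the data, as were the counts of each list under the settings. Quantile normalisation there gave 1542 higher and 1385 lower calls, which also turned the direction. Scaling to equal sums moved the median of all genes without that library to −0.09, against 0.05; elsewhere scalings moved it by less than 0.1. The cause of these moves was not tested. Apart from the fits that add libraries, each fit had 4 or fewer residual degrees of freedom.

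The replicate numbers are shared by the groups, but the labels do not say that a number marks an animal, litter or day. As the labels give no pairing, the main fits held no block. Deviations of same-numbered libraries from their group means correlated, across genes, at r = 0.30, 0.06 and 0.32. For libraries of unlike number r ran from −0.30 to 0.13. Each unsorted library correlated best with the SIX2+ library of its number. SIX2+ library 2 correlated better with unsorted library 1 (0.13). With the replicate number as a block the calls were 1775 (605 higher, 1170 lower), and 4000 without unsorted library 2 (1839 higher, 2161 lower).

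Of the 67 called genes named by rule (19 higher, 48 lower), 36 kept the call under all 6 leave-outs and up to 14 other settings: 33 of the lower ones, and among the higher ones Rsc1a1, Hoxd10 and Hoxa9. None changed direction. With no filter on low values Six2 missed the call (adjusted p = 0.0547, limma), and so did Cited1 (0.0778) and Traf1 (0.0945); with the 14 other libraries in 1 fit Six2 missed it too (0.113). Across its leave-outs the adjusted p ran from 0.00141 to 0.0729 for Six2, 0.00042 to 0.102 for Cited1 and 0.000734 to 0.133 for Traf1. At an estimated 3100000 reads a zero in unsorted library 2 says little.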

Other observations

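Further gene families were looked up after the values had been seen, and their counts are a description. These counts stand beside 4.89% called higher and 10.4% lower over all genes tested, and 10.3% and 14.2% without unsorted library 2. Hox genes as a whole were higher in SIX2+ cells, the anterior ones included: of 31 tested, 21 were called higher and none lower (median 1.12, beside 0.12 over all genes tested), and 25 without unsorted library 2 (median 1.17). For the anterior Hoxa2 to Hoxa5, SIX2− libraries too stood above the unsorted ones, as for Rsc1a1. Means in SIX2+, SIX2− and unsorted libraries were 8.15, 7.74 and 3.88 RPKM for Hoxa2. They were 22.0, 17.3 and 8.42 RPKM for Hoxa3, 9.56, 8.82 and 3.24 RPKM for Hoxa4, and 58.8, 39.0 and 22.6 RPKM for Hoxa5. In the Hoxb cluster 7 of 8 tested were called. Hoxb5 stood at 62.2, 53.9 and 71.2 RPKM in SIX2+ libraries, 16.0, 16.6 and 21.2 RPKM in SIX2− libraries and 10.9, 7.64 and 20.6 RPKM in unsorted libraries (2.27 ± 0.32, limma adjusted p = 0.00403). Hoxb3 was at 56.2, 54.3 and 43.3 RPKM in SIX2+ libraries, 17.0, 15.5 and 15.9 RPKM in SIX2− libraries and 15.6, 14.6 and 22.0 RPKM in unsorted libraries (1.52 ± 0.20, adjusted p = 0.00327). Both calls held without each library in turn.

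Claudins, the strand proteins of tight junctions, mostly fell: of 12 tested, 9 were called lower and 1 higher; 7 of the 9 had passed the filter on low values only through the unsorted libraries, which fixed their direction. Cldn1, of the parietal layer of Bowman's capsule and of early nephrons, was at 0.361, 0.425 and 0.449 RPKM in SIX2+ libraries, against 19.6, 7.35 and 24.6 RPKM in unsorted libraries (−3.54 ± 0.40, limma adjusted p = 0.00173). Cldn9 was the member that rose, at 42.2, 47.6 and 60.3 RPKM in SIX2+ libraries, 3.15, 4.56 and 7.78 RPKM in SIX2− libraries and 10.04, 8.70 and 21.2 RPKM in unsorted libraries (1.92 ± 0.32, adjusted p = 0.00773). Of 6 Igfbp genes, which bind insulin-like growth factors, 4 were called lower and Igfbp2 higher (112, 84.6 and 108 RPKM in SIX2+ libraries, against 60.1, 44.4 and 52.9 RPKM in unsorted libraries; 0.94, adjusted p = 0.0147, lost without SIX2+ library 1 or 3 at 0.0789 and 0.0701). Igfbp7 was at 2.50, 2.13 and 2.78 RPKM in SIX2+ libraries, against 103, 77.2 and 50.3 RPKM in unsorted libraries (−4.43 ± 0.27).

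Of 13 host genes of small nucleolar RNAs (Snhg) tested, 7 were called higher in SIX2+ cells and 1 lower, beside 4.89% and 10.4% of all genes. Their median was 1.08, beside 0.12 over all genes. Without unsorted library 2, 10 were called higher, beside 10.3% of all genes. Snhg7 was at 33.3, 20.4 and 19.2 RPKM in SIX2+ libraries, 12.1, 8.52 and 10.1 RPKM in SIX2− libraries and 7.28, 0.868 and 5.96 RPKM in unsorted libraries (2.37 ± 0.54, limma adjusted p = 0.0255; lost without any SIX2+ library at 0.0794 to 0.104). Snhg3 was at 30.5, 30.4 and 18.7 RPKM in SIX2+ libraries, 22.9, 27.3 and 13.5 RPKM in SIX2− libraries and 12.96, 2.95 and 10.2 RPKM in unsorted libraries, so both sorted fractions stood above the unsorted cells, as for Rsc1a1. It was called at 1.66 (adjusted p = 0.0483) and lost the call without any SIX2+ library or unsorted library 3 (0.0502 to 0.16). The lower member was Snhg18 (−1.13, adjusted p = 0.0367), which lost the call without any SIX2+ library or unsorted library 1 (0.0794 to 0.135).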
